A study of Drosophila melanogaster with 42 samples.

Results

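Sodh-1 and Sodh-2 encode the paired sorbitol dehydrogenases of Drosophila melanogaster, and both were followed here in RNA of whole animals through metamorphosis and early adult life. The pair was taken by gene name from the deposited count table, where it makes up 2 of 15038 genes, and both genes passed the filter on low counts that left 13672 genes for testing. The pair was selected on measured values, namely the already known difference of Sodh-1 between genotypes at the stage labelled A1. The A1 values of both genes are therefore given below as a description with no test, and the tests concern the other stages.

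Sorbitol dehydrogenase catalyses the closing step of the polyol pathway. In that pathway an aldose reductase of the aldo-keto reductase family reduces glucose to sorbitol, and sorbitol dehydrogenase then oxidises sorbitol to fructose while reducing NAD+ to NADH. In insects the pathway is known for linking sugar supply to polyol pools and for signalling sugar intake to the Mondo (ChREBP-like) transcription factor, with its partner bigmax and its target sugarbabe (sug). ERR, the estrogen-related receptor of the fly, is a nuclear receptor known as a regulator of carbohydrate metabolism genes.

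The series holds 42 libraries, with 3 per genotype and stage over 2 genotypes and 7 stages, with the time point labels WPP, P1 to P4, A1 and A6. WPP is the usual abbreviation of white prepupa, and the labels do not spell out the other names. Control and dERR mutant animals both received heat on days 4 and 5 after egg laying (AEL), and they differed in whether they carried hsFLP, a transgene for a heat-inducible FLP recombinase. The labels give neither the alleles behind the mutant nor the sex, and the material is given as whole fly, so a difference cannot be assigned to a tissue, and fewer cells of a type and less RNA per cell cannot be told apart. A difference between the genotypes also cannot be told apart from an effect of the transgene itself. Whether the 3 libraries in a group stem from separate animals or cultures is not stated, so the p-values reflect only the spread among these samples, and that spread may be technical.

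Library totals ran from 4308848 to 7737140 counts, so a gene at 1 CPM (the count scaled to library size with TMM factors, the unit of all levels below unless FPKM is named) rests on a few reads. ERR lay below all 3 controls in all 3 mutant libraries at each stage. It was called lower at P4, A1 and A6, and at A6 its level was 5.46 ± 0.821 CPM (SD, n = 3) beside a control level of 35.6 ± 1.36 CPM. From WPP to P3 its difference was not called (adjusted p = 0.176, 0.135, 0.137 and 0.101, edgeR's quasi-likelihood test with Benjamini-Hochberg adjustment). Replicate 1 of the P1 mutants stood apart from the other libraries of its stage. Its 10 testis markers summed to 2.30 CPM, against 547 to 757 CPM in the P1 controls, and its 2 roX dosage compensation RNAs to 4.46 CPM, against 230 to 336 CPM. Comparisons of Sodh-1 and Sodh-2 that use the P1 mutants are also given without this library. Values of other genes at P1, and shares over all tested genes, include it. It also enters the spread estimated for each gene over all libraries, and through it the SE and the calls at every stage. In the A6 controls the testis markers summed to 2259 to 2344 CPM while Yp1, a yolk protein gene of adult females, reached at most 1.28 CPM. The 5 yolk and eggshell genes with counts, Yp1 among them, summed to 13.9 to 15.1 CPM there. In the A6 mutants the testis sum was 2243 to 2393 CPM and the yolk and eggshell sum 9.34 to 11.45 CPM.

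Both genes lie on the plus strand of chromosome arm 3R in the dm6 genome, and they share much of their exon plan. Sodh-1 (FBgn0024289) spans bases 7052335 to 7054541 and has 2 annotated transcripts, which differ in exon 1. Sodh-2 (FBgn0022359) spans bases 10876384 to 10878257 and has 1. Each transcript has 6 exons. Exons 2, 3, 4 and 5 are 34, 470, 219 and 122 bases long in both genes, whereas exon 1 is 315 or 123 bases in Sodh-1 and 125 bases in Sodh-2, and exon 6 is 227 and 376 bases. Because the genes are paralogs, reads from stretches alike in both could be split between them by the authors' counting, and levels of the weaker gene are uncertain to that extent.

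**Figure D1:**
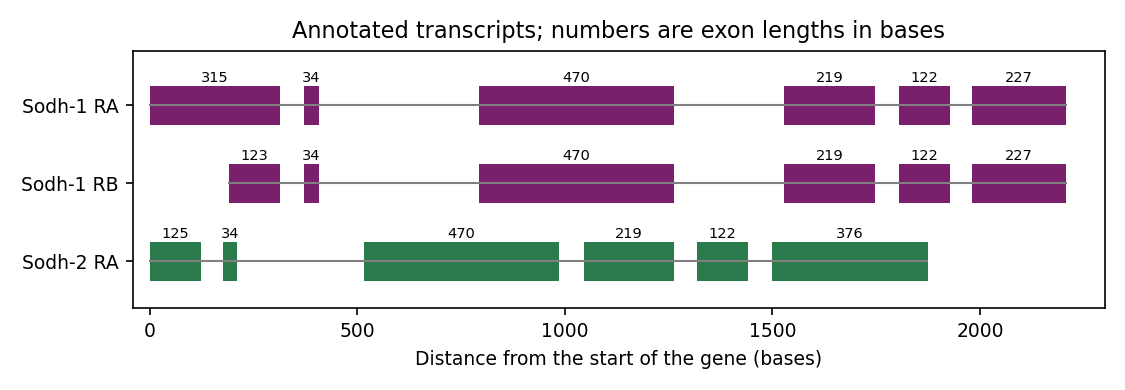
Exon structure of the transcripts of Sodh-1 and Sodh-2, drawn to scale in bases from each gene's start. Boxes are exons and lines are introns. Exons 2 to 5 have the same lengths in both genes (34, 470, 219 and 122 bases), and the last exon is longer in Sodh-2.

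The neighbours of the pair differ. CG1979 starts 44 bases after Sodh-1 on the same strand, and the nearest gene on the other side, the homeotic gene Antp, lies 53106 bases before it. CG4596 ends 801 bases before Sodh-2, and Tpc1, which encodes a mitochondrial thiamine pyrophosphate carrier, lies 1314 bases after it on the minus strand. Sodh-2 also overlaps an antisense RNA, asRNA:CR45195, and the end of CG14695 on the minus strand. The strand setting of the counting is not given in the sources used here, so reads of these overlapping genes cannot be told apart from those of Sodh-2. Both were scarce, with at most 7 counts of asRNA:CR45195 and 16 counts of CG14695 in any library.

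In controls, Sodh-1 was scarce through the early stages and became abundant in the stages labelled A. Its level stayed near 1 CPM from WPP to P3, rose at P4 and was far higher at A1 and A6. The control libraries read 0.825, 0.920 and 1.32 CPM at WPP and 0.982, 1.90 and 0.650 CPM at P1. They read 1.29, 1.61 and 1.11 CPM at P2, and 0.400, 0.872 and 0.570 CPM at P3. These 12 libraries hold between 2 and 12 reads of the gene each, and none of the 3 steps between the 4 stages was called (adjusted p = 0.803, 0.781 and 0.141, edgeR). At P4 the control libraries stood at 6.64, 11.2 and 15.4 CPM. All 3 lay above every earlier control library, and the rise from P3 to P4 was 17.6-fold (log2 4.14, SE 0.428, adjusted p = 1.23e-09). At A6 they stood at 237.4, 175.3 and 111.6 CPM, with a coefficient of variation (CV) of 36%, and all lay above every P4 library. The rise from P4 to A6 was 15.8-fold (log2 3.99, SE 0.266, adjusted p = 2.32e-14), and from WPP to A6 it was 169.7-fold (log2 7.41, SE 0.343, adjusted p = 8.28e-19). Calls at these steps are common, since 37.5% of all tested genes were called between P3 and P4 in controls, 45.4% between P4 and A6 and 79.2% between WPP and A6.

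The A1 controls, described without a test, were the highest of the course at 323.9, 316.0 and 258.6 CPM. Their mean of 299.5 CPM was 27.2 times the P4 mean by the fitted value, and the A6 mean of 174.8 CPM was 1.71-fold lower than at A1, with no overlap between the A1 and A6 libraries.

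The mutant libraries followed the rise at P4 and then diverged from the controls. At P4 they stood at 4.91, 4.74 and 6.38 CPM, above every mutant library of an earlier stage, and the rise from P3 was 7.96-fold (log2 2.99, SE 0.479, adjusted p = 4.47e-06, edgeR), a step at which 37.9% of tested genes were called in mutants. At A6 they stood at 7.74, 5.48 and 8.06 CPM, which overlap the mutant P4 libraries. The step from P4 to A6 was not called in mutants (log2 0.39, 95% interval -0.24 to 1.02, adjusted p = 0.303), in a comparison that called 48.2% of tested genes. At A1 the mutants read 21.7, 30.3 and 25.4 CPM, 4.77-fold above P4 and 3.64-fold above A6 by the fitted values, given without a test. From WPP to A6 the mutant rise was 20.8-fold (log2 4.38, SE 0.470, adjusted p = 6.34e-10), where 78.1% of tested genes were called.

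**Figure D2:**
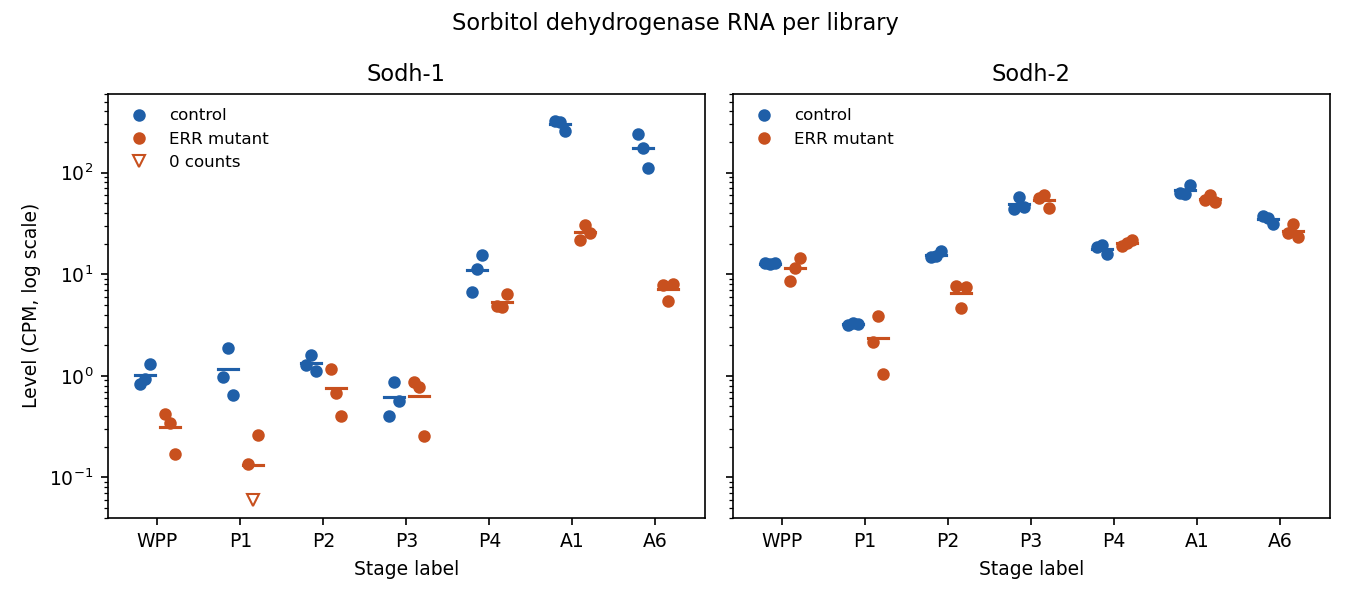
CPM of Sodh-1 and Sodh-2 in each of the 42 libraries by stage, on a log axis, with controls and mutants side by side. Points are libraries and an open triangle marks a library with 0 counts. Sodh-1 controls climb to between 111.6 and 323.9 CPM at A1 and A6 while the mutants stay at or under 30.3 CPM, and Sodh-2 stays between 1.04 and 75.35 CPM throughout.

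Sodh-1 was strongly lower in the mutant at A6. The 3 control libraries (237.4, 175.3 and 111.6 CPM) and the 3 mutant libraries (7.74, 5.48 and 8.06 CPM) did not overlap, and even the lowest control was far above the highest mutant. The mean fell from 174.8 ± 62.9 CPM to 7.09 ± 1.41 CPM, a 24.7-fold difference (log2 -4.63, SE 0.275, adjusted p = 5.95e-14, edgeR's quasi-likelihood test with Benjamini-Hochberg adjustment). Of all tested genes, 5.28% were called lower in the mutant at A6, and 17.9% had mutant libraries that all lay below the controls. Among the 10836 genes with a mean of at least 5 CPM in either genotype at A6, Sodh-1 had the 10th most negative log2 difference.

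Markers of several tissues moved between the genotypes at A6 as well, and their part in the Sodh-1 difference was not tested. The 8 male accessory gland markers were all called lower, and they summed to 4608 to 5172 CPM in controls and 1915 to 2887 CPM in mutants. Of 13 midgut digestive enzyme genes, 5 were called lower and none higher (8514 to 9655 against 4600 to 5617 CPM). Of 9 fat body genes, 4 were called lower and none higher (3286 to 3676 against 2019 to 2254 CPM). Those called were apolpp, Lsd-1, Lsp1beta and Lsp2, and Lsp1beta and Lsp2 each stood at only 14.1 CPM in controls. FASN1 lay higher in mutants without a call (1189 CPM in controls, 1484 CPM in mutants, adjusted p = 0.0506, edgeR). Of 7 flight muscle genes, 6 were called higher and none lower (3898 to 4092 against 7289 to 8095 CPM). Over all tested genes, 5.28% were called lower and 6.14% higher at A6. None of the 10 testis markers and neither roX RNA was called, although the roX sum was 498 to 560 CPM in controls and 695 to 846 CPM in mutants. The SE of the testis and roX log2 differences at A6 was wide (0.419 to 0.599), so the missing calls do not show equal levels. The fit estimates each gene's spread over all libraries, and P1 mutant replicate 1, very low in these RNAs, is among them. Of the 5 yolk and eggshell genes in the table, 2 were abundant enough to test and neither was called.

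At A1 Sodh-1 measured 323.9, 316.0 and 258.6 CPM in controls and 21.7, 30.3 and 25.4 CPM in mutants, again with no overlap, as in 10.7% of tested genes with the mutant lower. The fitted difference was 11.6-fold (log2 -3.54, SE 0.252), the 7th most negative of the 10742 genes with a mean of at least 5 CPM in either genotype. This is the contrast that led to the choice of the gene, in which 1.97% of all tested genes were called lower, and nothing is read from it. Of the marker genes, 1 midgut gene and 1 fat body gene were called higher at A1 and none was called lower, beside 0.929% of all tested genes called higher.

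At P4, where the gene begins to rise, Sodh-1 measured 6.64, 11.2 and 15.4 CPM in controls and 4.91, 4.74 and 6.38 CPM in mutants. The highest mutant library lay just under the lowest control, a separation with the mutant lower that 5.57% of tested genes showed. The 2.04-fold difference was not called (log2 -1.03, SE 0.302, 95% interval -1.64 to -0.41, adjusted p = 0.112, edgeR), while 0.402% of tested genes were called lower. Without replicate 1 of the P4 controls, the lowest of them, it was called (log2 -1.30, adjusted p = 0.0459). That was the only call among the 42 fits that left out 1 library (adjusted p up to 0.342). None of the 6 other settings, DESeq2 among them, called it (adjusted p from 0.0918 to 0.368). At this stage 5 of the 8 accessory gland markers were called lower, with sums of 102 to 298 CPM in controls and 42.3 to 70.8 CPM in mutants. FASN1 of the fat body list and Yp3 of the yolk and eggshell list were called higher (adjusted p = 0.000624 and 0.0168), and the part of these markers was not tested. In either direction, 0.856% of all tested genes were called at P4.

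The genotype difference of Sodh-1 grew between P4 and A6. The log2 difference at A6 was lower than that at P4 by a further -3.60 (SE 0.406, 95% interval -4.42 to -2.77, adjusted p = 9.72e-07, edgeR's quasi-likelihood test), a contrast in which 1.99% of tested genes were called lower. Over the 6 stages other than A1, the interaction of genotype with stage was also called (adjusted p = 5.05e-07), as it was for 11.1% of tested genes, and without P1 mutant replicate 1 the adjusted p was 3.73e-07.

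Before P4 the comparison of Sodh-1 rests on few reads. At P1 the controls held 8, 12 and 5 reads (0.982, 1.90 and 0.650 CPM) and the mutants 1, 0 and 2 reads (0.135, 0 and 0.260 CPM). The mutants lay below the controls in every library, as did 9.64% of tested genes. For the library at 0, a count of 0 allows a level of up to 0.405 CPM. The summed counts of 25 and 3, scaled to library size, gave a control level 8.46 times the mutant level with a counting interval of 2.58 to 43.8, and this ratio was added after the low counts were seen. Without mutant replicate 1 the ratio was 8.518 (counting interval 2.124 to 74.2). Such intervals and limits cover counting error only. The difference was called (adjusted p = 0.0341, edgeR's quasi-likelihood test) where 0.629% of tested genes were called lower, and its fitted log2 value of -2.91 (SE 0.706) depends on the prior count. The call was lost without control replicate 2 (adjusted p = 0.222), without mutant replicate 2 (adjusted p = 0.107), and without mutant replicate 1, the library that stood apart (log2 -2.91, adjusted p = 0.234).

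At WPP the mutants held 6 reads in all (0.424, 0.342 and 0.170 CPM) and the controls 20 (0.825, 0.920 and 1.32 CPM). The groups did not overlap, a separation that 7.15% of tested genes showed with the mutant lower. The control level was 3.15 times the mutant level by counts (counting interval 1.221 to 9.591), and the difference was not called (log2 -1.60, SE 0.650, adjusted p = 0.538, edgeR). At P2 the mutants read 1.18, 0.682 and 0.402 CPM and overlapped the controls (log2 -0.82, 95% interval -1.89 to 0.26, adjusted p = 0.386). At P3 they read 0.863, 0.783 and 0.257 CPM, with 9 reads in each genotype, and a difference was not detectable at this depth (log2 0.11, 95% interval -1.33 to 1.56). Among the mutant stages, P2 was called above P1 (adjusted p = 0.0167, edgeR), where 52.6% of tested genes were called, on 13 against 3 reads. That call was lost without P1 mutant replicate 1 (adjusted p = 0.0686).

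Sodh-2 had another course. It was measurable at every stage, dipped at P1 and peaked at P3 and again at A1, and each step called in both genotypes had the same direction in both. Control libraries read 12.8, 12.6 and 12.8 CPM at WPP, and 3.19, 3.32 and 3.25 CPM at P1. They read 14.6, 15.1 and 16.96 CPM at P2 and 43.7, 56.9 and 45.8 CPM at P3. The 3 P1 libraries lay below, and the 3 P3 libraries above, all other control libraries up to P4, and the replicates at WPP and P1 were close to each other (CV 1.12% and 1.95%). At P4 the controls fell back to 18.5, 19.2 and 15.6 CPM, and at A6 they stood at 37.5, 35.98 and 31.4 CPM.

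Each tested control step of Sodh-2 was called with edgeR's quasi-likelihood test. The level fell 3.90-fold from WPP to P1 (adjusted p = 1.87e-08), rose 4.76-fold to P2 (adjusted p = 9.74e-10) and a further 3.14-fold to P3 (adjusted p = 3.27e-08). It then fell 2.74-fold from P3 to P4 (adjusted p = 3.56e-07), and it rose 1.96-fold from P4 to A6 (adjusted p = 0.000112). The control steps from WPP to P1, P1 to P2 and P2 to P3 called 46.7%, 44.8% and 36.5% of all tested genes. From WPP to A6 Sodh-2 rose 2.75-fold (log2 1.46, SE 0.202, adjusted p = 1.1e-07), against the 169.7-fold rise of Sodh-1. The A1 controls, given without a test, read 63.3, 61.2 and 75.4 CPM and were the highest Sodh-2 libraries of the series.

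In mutants Sodh-2 fell from WPP to P1 (4.80-fold, adjusted p = 2.59e-09), rose to P2 (2.72-fold, adjusted p = 3.1e-05), rose to P3 (8.32-fold, adjusted p = 2.07e-13) and fell to P4 (2.65-fold, adjusted p = 6.59e-07). These mutant steps called 44.9%, 52.6%, 38.1% and 37.9% of tested genes. Without P1 mutant replicate 1 the WPP to P1 and P1 to P2 steps were still called (log2 -2.20 and 1.38, adjusted p = 8.16e-08 and 0.000427). From P4 to A6 the mutant rise of 1.31-fold was not called (log2 0.39, 95% interval -0.02 to 0.80, adjusted p = 0.112), although the mutant libraries of the stages did not overlap. That result changed side under several settings, and with DESeq2 it was called (log2 0.47, adjusted p = 0.0173).

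Between the genotypes, Sodh-2 was called lower in the mutant at P2 and at no other stage tested. At P2 the controls read 14.6, 15.1 and 16.96 CPM and the mutants 7.65, 4.64 and 7.43 CPM. The groups did not overlap, as in 15% of tested genes with the mutant lower. The mean fell from 15.6 ± 1.24 to 6.57 ± 1.68 CPM, a 2.40-fold difference (log2 -1.26, SE 0.223, adjusted p = 0.000121, edgeR's quasi-likelihood test), at a stage where 8.79% of all tested genes were called lower.

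The P2 mutants as a whole sat earlier on the control course than the P2 controls. On a line from the control P1 profile (0) to the control P3 profile (1), over 7749 genes called between those stages, the P2 controls lay at 0.570, 0.577 and 0.549 and the P2 mutants at 0.477, 0.441 and 0.461. On the same line Sodh-2 alone lay at 0.547, 0.558 and 0.602 in controls and at 0.306, 0.125 and 0.296 in mutants. Position and genotype cannot be told apart at this stage, and the position was added after the Sodh-2 values at P2 were seen. Of 7 flight muscle genes, 4 were called lower at P2, beside 8.79% of all tested genes. Their sums were 8146 to 9279 CPM in controls and 4451 to 6170 CPM in mutants, and their part was not tested. The roX sum was 133.5 to 295.3 CPM in controls and 315.6 to 502 CPM in mutants. Neither roX RNA was called (adjusted p = 0.342 and 0.128, edgeR), with wide SEs of 0.555 and 0.481. The sums of the 10 testis markers overlapped, at 526 to 1162 CPM in controls and 734 to 1307 CPM in mutants. Tpc1, the neighbour on the opposite strand, was also lower in the P2 mutants (83.1 ± 4.34 against 19.95 ± 2.54 CPM, 4.18-fold, adjusted p = 2.82e-12) and was called at no other stage. CG1979, the close neighbour of Sodh-1, was called at no stage, and at A6 it stood at 385.0 CPM in the control and 404.4 CPM in the mutant. The SE of its log2 difference at A6 was wide (0.564), so the missing calls do not show that its level was unchanged. Its A6 libraries were close to each other (SD 25.4 CPM in controls and 19.1 CPM in mutants). The P1 mutants, which enter the same spread estimate, ran from 0 to 93.7 CPM.

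At the other stages the Sodh-2 difference was small or not resolved. Its log2 values were -0.16 at WPP, 0.15 at P3 and 0.20 at P4, with overlapping libraries and adjusted p = 1, 1 and 0.825 (edgeR). The 95% intervals were -0.59 to 0.27, -0.24 to 0.53 and -0.23 to 0.62. At P1 the mutants read 2.16, 3.92 and 1.04 CPM and overlapped the controls on both sides (log2 -0.46, 95% interval -1.03 to 0.11, adjusted p = 0.568), and without mutant replicate 1 the log2 difference was -0.40.

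At A6 Sodh-2 measured 37.5, 35.98 and 31.4 CPM in controls and 25.3, 31.3 and 23.4 CPM in mutants. The highest mutant library lay just under the lowest control, a separation with the mutant lower that 17.9% of tested genes showed. The 1.31-fold difference was not called (log2 -0.39, SE 0.193, adjusted p = 0.225). At A1 the controls read 63.3, 61.2 and 75.4 CPM and the mutants 53.5, 60.4 and 51.1 CPM, a fitted log2 difference of -0.28 (SE 0.188) given without a test. The difference at A6 minus that at P4 was -0.59 (95% interval -1.16 to -0.01, adjusted p = 0.359). Over the 6 stages other than A1 the interaction of genotype with stage was called for Sodh-2 too (adjusted p = 0.00752, edgeR), in a test that called 11.1% of tested genes. With 1 library left out at a time its adjusted p ran from 0.000415 to 0.0477, and it was 0.00427 without P1 mutant replicate 1.

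**Figure D3:**
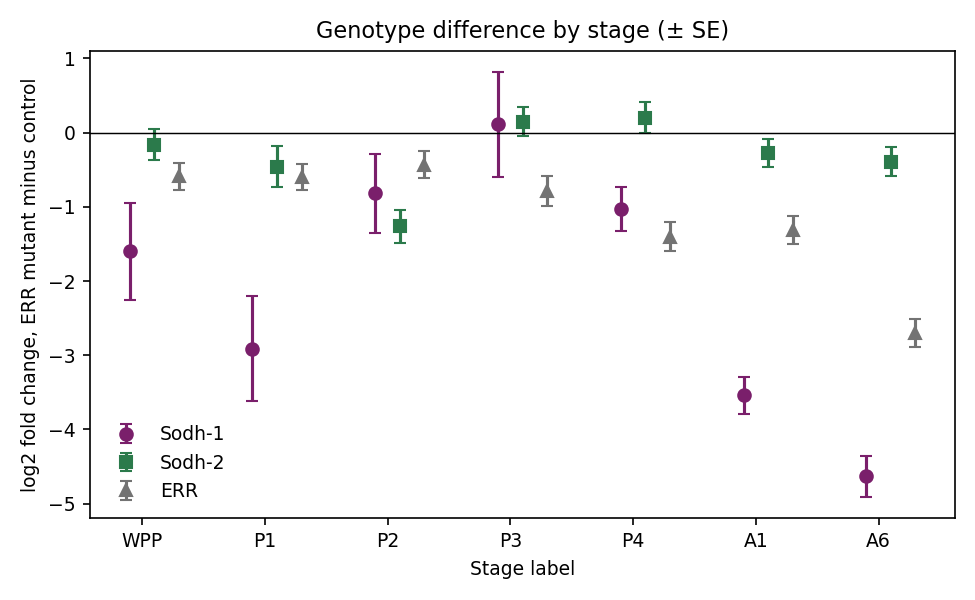
Log2 difference of mutant minus control at each stage for Sodh-1, Sodh-2 and ERR, with bars of 1 SE from the fit over all 42 libraries. Sodh-1 drops from -1.03 at P4 to -4.63 at A6, Sodh-2 is lowest at P2 (-1.26), and ERR is lowest at A6 (-2.70).

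Within the pair, the gene that supplied more of the RNA changed with stage and genotype. CG4836, a further gene of the family described below, is not counted in these shares. The deposited FPKM values, which are per length, allow the genes to be compared with each other. In controls the Sodh-1 share of the summed FPKM of the pair was 8.40 ± 1.90% at WPP, 26.6 ± 10.7% at P1, 9.04 ± 1.96% at P2 and 1.40 ± 0.347% at P3 (SD, n = 3). It rose to 40.88 ± 11.97% at P4 and to 84.4 ± 3.83% at A6. Thus Sodh-2 FPKM was 69.1 times that of Sodh-1 in the P3 controls, and Sodh-1 FPKM was 5.73 times that of Sodh-2 in the A6 controls.

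In mutants Sodh-2 remained the more abundant gene of the pair per length at every stage. The Sodh-1 share was 23.1 ± 2.10% at P4 and 23.7 ± 6.15% at A6, with 16.8 to 28.4% in the A6 mutants against 80.3 to 87.9% in the A6 controls. At A6 Sodh-2 FPKM was 3.26 times that of Sodh-1. The mutant shares at WPP, P1, P2 and P3 were 3.07, 8.72, 10.8 and 1.21%, and at P1 they ran from 0 to 19.5% on 3 reads of Sodh-1. Without P1 mutant replicate 1 the P1 mutant share was 9.725% and the summed FPKM 1.962, as means of 2 libraries. At A1, described without a test, the share was 83.6 ± 3.32% in controls and 34.8 ± 2.64% in mutants.

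The summed FPKM of the pair at A6 was 228 ± 71.1 in controls and 32.7 ± 1.95 in mutants, 6.98 times as high in controls, with no overlap. At P2 it was 13.6 against 6.04, 2.25 times as high and also without overlap. At WPP, P1, P3 and P4 the summed values of the genotypes overlapped. At A1 the sums were 388.5 and 81.6.

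**Figure D4:**
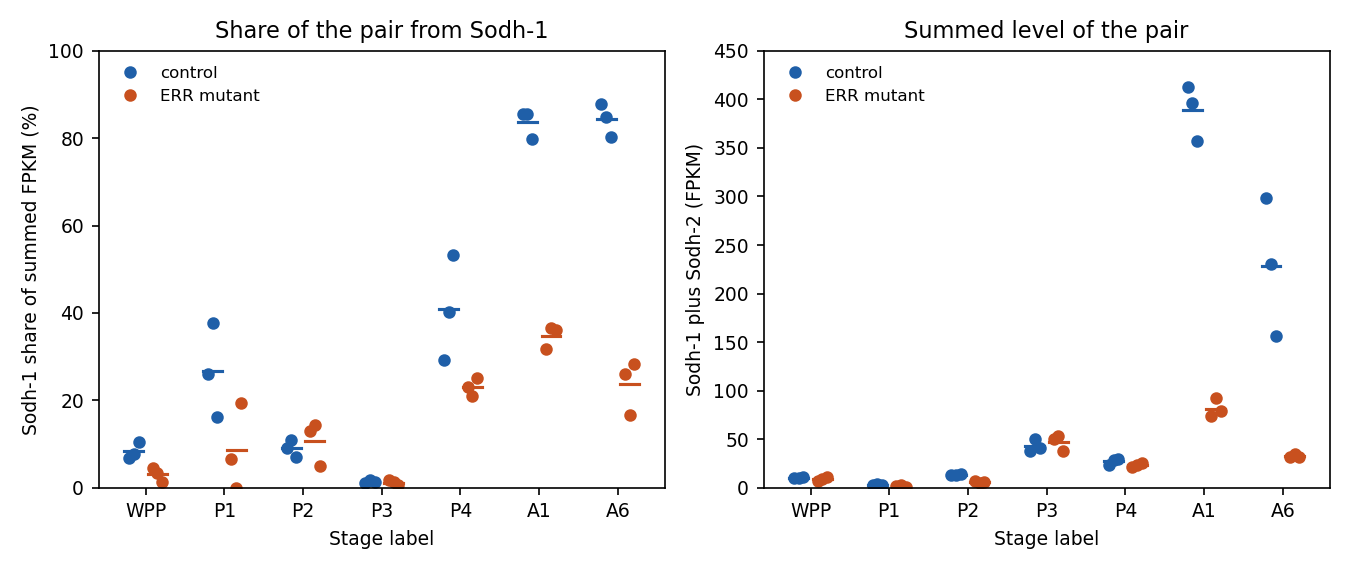
Share of Sodh-1 in the summed FPKM of the pair (percent), and the summed FPKM, both on linear axes, in each library by stage and genotype. At A6 the share lies between 80.3 and 87.9% in controls and between 16.8 and 28.4% in mutants.

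The 14 groups were also ranked by mean, as a description. For Sodh-1 the order began with A1 controls (299.5 CPM), A6 controls (174.8 CPM) and A1 mutants (25.8 CPM), whose libraries did not overlap those of the next group, and nothing is read from the A1 places. Below them P4 controls (11.1 CPM) overlapped A6 mutants (7.09 CPM), which overlapped P4 mutants (5.34 CPM). The 8 groups from WPP to P3 lay under these, each overlapping its neighbour in the order, so that 9 of 13 neighbouring pairs overlapped. For Sodh-2 the order ran from A1 controls (66.6 CPM) through A1 mutants (55.0 CPM), P3 mutants (53.9 CPM) and P3 controls (48.8 CPM) down to P1 controls (3.25 CPM) and P1 mutants (2.37 CPM), and 6 of 13 neighbouring pairs overlapped.

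The genes whose profiles were most like those of the pair were found by Pearson r of mean log2 CPM over the 14 groups, among 12359 genes with a mean of at least 5 CPM in some group. These values are descriptions, since all genes share the same libraries and the choice of groups. For Sodh-1 they were CG32444 (r = 0.960), Adhr (0.957), Adh (0.945), Got1 (0.944) and CG16756 (0.940). Adh encodes alcohol dehydrogenase, Adhr is the Adh-related gene beside it, and Got1 encodes an aspartate aminotransferase. At A6 Adh measured 3843 CPM in controls and 810.0 CPM in mutants, CG32444 221.5 and 68.0 CPM, and Got1 315.2 and 216.7 CPM. For Sodh-2 they were KCNQ, a potassium channel gene (0.939), CG6836 (0.937), CG16771 (0.926), CG12375 (0.923) and CG31673 (0.922). At A6 KCNQ measured 36.02 CPM in controls and 35.17 CPM in mutants. The profiles of the pair itself correlated at r = 0.588, which placed Sodh-2 at rank 3467 in the Sodh-1 list and Sodh-1 at rank 2979 in the Sodh-2 list.

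Sodh-1 had the largest fitted genotype difference at A6 when set beside the other genes of the pathway. A list of 18 aldo-keto reductases, dehydrogenase relatives, hexokinases and sugar-sensing regulators had 17 members in the table, and all 17 were tested. At A6, 5 were called lower and 2 higher in the mutant, where 5.28% of all tested genes were called lower and 6.14% higher. The median log2 difference of the list was -0.10, beside 0.01 over all tested genes. CG6084, the file's name for the aldose reductase gene Akr1B, measured 227 to 334 CPM in the A6 controls and 154 to 158 CPM in the mutants, and it fell 1.75-fold (adjusted p = 9.9e-07, edgeR). The aldo-keto reductase genes CG9436 (72.9 to 38.7 CPM), CG12766 (8.58 to 3.19 CPM) and CG2767 (59.4 to 46.7 CPM) fell as well (adjusted p = 0.000161, 0.00459 and 0.0402), and sug fell from 47.0 to 24.6 CPM (adjusted p = 0.0238). With only the groups compared in the fit, sug was not called at A6 (log2 -0.94, adjusted p = 0.176). Leaving out a single A6 library also ended calls at A6, in 4 cases for CG2767 and 3 each for sug and bigmax. Among the regulators bigmax rose from 16.99 to 24.28 CPM and cbt, a sugar-responsive transcription factor gene, from 63.6 to 111.5 CPM (adjusted p = 0.0168 and 4.66e-05).

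At P2, 5 list members were called lower and none higher, beside 8.79% of all tested genes called lower, and the list median was -0.23. They were CG6084, CG10863 and CG2767 of the aldo-keto reductases, the hexokinase gene Hex-A and sug. CG6084 fell from 160.5 to 116.9 CPM (adjusted p = 0.00218) and Hex-A from 110.5 to 72.4 CPM (adjusted p = 1.18e-05, edgeR). With only the groups compared in the fit, CG6084 (adjusted p = 0.0563) and CG2767 (adjusted p = 0.153) were not called at P2. The sug call at P2 was lost with DESeq2 size factors and with the deposited factors (adjusted p = 0.0541 and 0.0611), and in 5 fits that left out 1 P2 library, as was that of CG2767 in 2. At WPP Hex-A and the hexokinase gene Hex-C were called lower and none higher, beside 0.446% of all tested genes called lower. Hex-A fell from 102.3 to 72.3 CPM, whereas Hex-C was near the floor (1.85 CPM in controls, 0.426 CPM in mutants). The Hex-C call was lost in 4 fits that left out 1 WPP library. No list member was called at P1, P3 or P4, where 0.797%, 0.446% and 0.856% of all tested genes were called in either direction. At A1, CG6084 and CG12766 were called lower and CG10638 higher, beside 1.97% and 0.929% of all tested genes, and the CG10638 call was lost with only the groups compared (adjusted p = 0.133) and in 10 fits that left out 1 library.

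CG4836, a further gene of the sorbitol dehydrogenase family, was already abundant at the early stages. It rose in controls from 394.2 CPM at WPP to 2980 CPM at A6 (7.56-fold, adjusted p = 0.000665, edgeR) and was called between the genotypes at no stage. The SE of its log2 genotype difference at A6 was wide (0.681), so the missing calls do not show equal levels. At A6 the control level was 2980 ± 75.5 CPM and the mutant level 3099 ± 34.8 CPM. In the P1 mutant replicate 1, the library low in testis markers, it stood at 1.08 CPM. That value enters the gene's spread estimate and so the SE at A6. Over the control course from WPP to A6, where 79.2% of tested genes were called, Hex-C rose 53.3-fold (adjusted p = 1.54e-18), beside the 169.7-fold rise of Sodh-1. The Hex-C rise started near the floor, from 1.85 CPM at WPP to 98.3 CPM at A6.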

How the data were processed

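RNA of whole animals was measured in 42 poly(A) libraries made with a stranded kit, per the labels' protocols. The submitters' processing notes name genome build dm6 and list DESeq2 1.22.2, RSEM 1.3.1, STAR 2.7.0f and cutadapt 1.16. What each did, the annotation used and whether reads were counted by strand are not given in the sources used here. Gene values in the deposited table of estimated counts were all whole and needed no rounding. The deposited normalized signal is the count divided by a factor, and it entered only as an alternative scaling, in which entries with a count of 0 took the library's median factor. The deposited FPKM values served to compare the paired genes per length. The deposited log-scale values and sample sheet were not used, and 0 sample columns were left unmapped.

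Counts were tested in R 4.3.3 with edgeR 4.0.16 (limma 3.58.1). A single model of the 14 groups was fitted to the 42 libraries after TMM scaling, on the 13672 genes that filterByExpr kept, with 28 residual degrees of freedom. P-values of the robust quasi-likelihood test were adjusted by Benjamini-Hochberg over all tested genes within each comparison, and a gene is called where the adjusted p lies under 0.05. The SE was derived from the log2 fold change and the F statistic. Replicates within a group were compared in 42 pairs, and their chi-square statistic per gene of 2.77 to 67.52 showed that no pair agreed within sampling noise. The procedure was tested on simulated data. Alternatives were DESeq2 (version 1.42.0) size factors, the deposited factors, DESeq2 itself, no filter, only the groups compared, no robust dispersion, and leaving out each library in turn.

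The members and all lists were chosen with earlier results of these data known. Named genes were the pair, ERR, the genes of the pathway lists, the 5 genes most like each member by Pearson r of mean log2 CPM (prior count 2) and the nearest annotated genes. Gene models are those of Ensembl release 115 (BDGP6.54, dm6 coordinates), which holds 99.4% of the identifiers in the count table. CG40064 and 6 eggshell genes of the lists were not analysed here.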

Additional observations from a re-analysis of the deposited data

Results flagged for a closer look

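The difference between mutant and control for Sodh-1 was not the same at all stages. Over WPP, P1, P2, P3, P4 and A6 the genotype by stage interaction had an adjusted p of 5.05e-07 (edgeR's quasi-likelihood test with Benjamini-Hochberg adjustment over 13672 genes), and 11.1% of tested genes were called in the same test. The difference at A6 minus that at P4 was -3.60 on the log2 scale (SE 0.406, adjusted p = 9.72e-07). All 3 mutant libraries lay below all 3 controls at both stages.

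For Sodh-2 the same interaction over 6 stages had an adjusted p of 0.00752, with the called difference at P2 (log2 -1.26) and values of 0.15 and 0.20 at P3 and P4. Groups hold 3 libraries each, too few for a formal outlier test within a group.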

How the results depend on the processing

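Of 2006 values for 42 results on Sodh-1 and Sodh-2 under the alternatives, 1982 kept their direction and their side of the threshold. Most of these values come from fits that left out 1 library, often a library outside the comparison, where agreement says little. The A1 values carry no adjusted p, so no threshold applied to them. Among the other settings, the Sodh-2 step from P4 to A6 in mutants was called with DESeq2 size factors (log2 0.47, adjusted p = 0.045), the deposited factors (0.48, 0.0431), only the groups compared (0.34, 0.0329) and DESeq2 (0.47, 0.0173). With only the groups compared, the Sodh-2 difference at A6 was called (-0.40, adjusted p = 0.0161) and the Sodh-2 mutant step from P1 to P2 was not (1.47, adjusted p = 0.0737). With DESeq2 the Sodh-1 difference at P1 was not called (-3.04, adjusted p = 0.0552). The cause was not tested in these cases.

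With each library left out in turn, the Sodh-1 difference at A6 ran from -4.87 to -4.34 (adjusted p from 1.47e-15 to 1.44e-11) and the Sodh-2 difference at P2 from -1.39 to -1.05 (adjusted p at most 0.00477), and every such fit kept both calls. The Sodh-1 difference at P1 ran from -3.72 to -2.42 and at P4 from -1.30 to -0.72. The Sodh-1 mutant step from P1 to P2 ran from 1.83 to 3.13, and its call was also lost without P1 mutant replicate 2 (adjusted p = 0.061) and P2 mutant replicate 1 (adjusted p = 0.0725). The Sodh-2 mutant step from P4 to A6 ran from 0.29 to 0.50 and was called without P1 mutant replicate 2 or 3 (adjusted p = 0.0392 and 0.0407). Directions of uncalled differences turned. The Sodh-2 difference at WPP was 0.02 without mutant WPP replicate 1 (range -0.35 to 0.02), and the Sodh-1 difference at P3 was -0.11, -0.13 and -0.05 without control replicate 1, mutant replicate 1 and mutant replicate 2 (range -0.13 to 0.42). Among the Sodh-1 steps, control WPP to P1 was -0.28 without control P1 replicate 2 (range -0.28 to 0.47), and control P1 to P2 was -0.07 without control P1 replicate 3 (range -0.07 to 0.69). Mutant P2 to P3 was 0.20 without mutant P2 replicate 1 and 0.13 without mutant P3 replicate 3 (range -0.43 to 0.20).

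Over the pathway list, the counts called lower with other settings were 5 to 6 at A6, 3 to 5 at P2 and 1 to 2 at WPP. The fit of only the groups compared gave the low values at P2 and WPP, and it called 0 genes higher at A1. With a library left out they were 3 to 6, 3 to 5 and 1 to 2. The count at A6 fell to 3 without control A6 replicate 2 or mutant A6 replicate 3, and that at P2 fell to 3 without control P2 replicate 3 or mutant P2 replicate 2.

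The 8 Sodh-1 groups up to P3 hold 3 to 26 reads each, which limits what can be resolved there. Only the groups compared gave no value for the low Sodh-1 contrasts, which the filter then removed. No paired analysis was possible because the labels give no replicate numbers, and the numbers used here follow the order of deposit.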
